A study of Homo sapiens with 6 samples.

Results

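Retained-intron transcripts are annotated RNAs that keep sequence which the protein-coding transcripts of the same gene splice out. They were described here in THP1, a human monocytic line established from acute myeloid leukaemia, in libraries labelled as control, knock-down and rescue of ALKBH5, which erases N6-methyladenosine (m6A) from RNA. Members were chosen by 2 criteria, the GENCODE type retained_intron and a minimum of 60 estimated counts summed over the 6 libraries. The choice therefore used total abundance and no contrast between libraries. Of 26777 transcripts of this type in the files, 22357 had a count above 0 and 9855 (36.8%) met the minimum, among 163714 annotated transcripts in all. The members came from 4635 host genes, of which 2312 had 1 member and 2323 had more, with 17 in MAN2C1 as the highest number. Just inside the minimum stood MCRS1-213 and MYO19-208 with 60.01 summed counts each, and just outside it KIF26B-204 with 59.98 and NXF3-204 with 59.96.

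Polyadenylated RNA was sequenced from 3 labelled groups with 2 libraries each: shCtrl (a hairpin control, genotype given as wild-type), shA5 (a hairpin knock-down of ALKBH5) and A5-res (ALKBH5 rescue). All groups are THP1 cells kept in the same medium, and the labels do not say whether a line is 1 clone or which promoter drives the rescue. The titles number the libraries of each group 1 and 2. Separate cultures are not mentioned, and p-values therefore speak only of how these libraries scatter, in part perhaps for technical reasons. The libraries held 14534386 to 24857373 estimated counts each. Of the 9 monocytic markers examined, 8 were at 1 TPM or more in all libraries, and none of the 5 erythroid and megakaryocyte markers or the 5 epithelial and fibroblast markers was. Of 6 T and NK cell markers 1 reached that level, and of 5 B cell markers 2 did. The summed level of the monocytic markers was 2327 to 2348 TPM in the number 1 libraries and 2779 to 2873 TPM in number 2. The part of this difference in the results below was not tested. ALKBH5 itself went against the labels: it summed to 6.98, 5.93 and 6.04 TPM in the number 1 libraries labelled shCtrl, shA5 and A5-res, and to 517, 508 and 502 TPM in number 2. Group names below therefore mean the libraries labelled so, and values are given in the order shCtrl, shA5, A5-res within each number.

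Splicing removes introns in the nucleus, and most human introns are cut out by the major spliceosome. A small class is removed by the minor spliceosome, which reads a long donor motif (ATATCC or GTATCC at the start of the intron) and a branch motif close to the intron's end, and which works more slowly. Transcripts that keep an intron are often held in the nucleus or, once exported, degraded by nonsense-mediated decay. Regulated retention of this kind is known for MAT2A, OGT and genes of splicing factors, and retention is known to take part in granulocyte maturation.

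Introns kept whole by some members described below are printed first, the minor-type ones because their ends set them apart. The values below belong to whole transcripts and not to single introns. Each is an intron between coding exons that the named member keeps whole, read 5′ to 3′ on the strand of the gene from the GENCODE release 29 transcripts (GRCh38). In the minor-type introns the first 6 bases, the branch motif and the last 2 bases are in capitals. Branch motifs were searched in the last 40 bases of an intron, on the strand of the gene only. The motif CCTTAAC was searched together with the related motif CCTTGAC. The motif CCTTAAT was searched together with the related motif CCTTGAT. ZDHHC5-207 keeps chr11:57690204-57690334 (+), DRAP1-207 chr11:65919853-65919947 (+), UBL5-203 chr19:9828394-9828591 (+), USP21-206 chr1:161164613-161164834 (+) and TRAIP-211 chr3:49829226-49829457 (-).
ZDHHC5-207: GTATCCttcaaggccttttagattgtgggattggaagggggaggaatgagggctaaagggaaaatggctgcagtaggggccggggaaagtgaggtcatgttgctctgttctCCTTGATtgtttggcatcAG
DRAP1-207: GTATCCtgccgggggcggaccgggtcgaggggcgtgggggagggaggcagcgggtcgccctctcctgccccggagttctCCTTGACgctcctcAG
UBL5-203: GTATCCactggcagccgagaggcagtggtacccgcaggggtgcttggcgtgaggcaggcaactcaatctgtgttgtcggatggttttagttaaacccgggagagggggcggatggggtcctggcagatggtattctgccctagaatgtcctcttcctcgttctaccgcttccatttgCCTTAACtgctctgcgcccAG
USP21-206: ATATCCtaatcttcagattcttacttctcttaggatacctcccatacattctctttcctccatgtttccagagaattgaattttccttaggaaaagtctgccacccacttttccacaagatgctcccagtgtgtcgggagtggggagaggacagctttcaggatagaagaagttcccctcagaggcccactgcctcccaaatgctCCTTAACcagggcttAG
TRAIP-211: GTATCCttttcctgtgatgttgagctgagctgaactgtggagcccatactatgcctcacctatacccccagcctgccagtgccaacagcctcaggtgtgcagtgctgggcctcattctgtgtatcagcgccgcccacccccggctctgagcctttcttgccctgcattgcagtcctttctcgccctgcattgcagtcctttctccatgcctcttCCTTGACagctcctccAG
The introns of ALG3-213 (chr3:184242958-184243553, -, 596 bases) and E2F4-203 (chr16:67193171-67193471, +, 301 bases) start with ATATCC and end with AC. For these the last 10 bases of the exon with the first 20 of the intron, and the last 28 of the intron with the first 5 of the next exon, are shown.
ALG3-213 donor: acacccaaccATATCCtttaaattgtggga
ALG3-213 acceptor: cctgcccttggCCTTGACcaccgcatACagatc
E2F4-203 donor: agaacagctgATATCCtcctggcggtccct
E2F4-203 acceptor: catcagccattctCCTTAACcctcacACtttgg
For comparison, MAT2A-205 (chr2:85542374-85542564, +) and NPM1-205 (chr5:171392817-171392913, +) keep introns of the major type, with only the GT and AG ends in capitals.
MAT2A-205: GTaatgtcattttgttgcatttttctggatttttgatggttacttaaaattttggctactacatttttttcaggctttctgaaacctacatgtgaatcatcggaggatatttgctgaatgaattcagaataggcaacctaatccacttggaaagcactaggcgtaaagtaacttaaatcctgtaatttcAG
NPM1-205: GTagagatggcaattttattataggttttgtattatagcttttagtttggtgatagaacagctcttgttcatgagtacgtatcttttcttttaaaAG

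Members were short models. Their median length was 1016 bases (interquartile range 665 to 2337.5), against 3065 bases for the longest protein-coding transcript of the host gene, and a median of 35.1% of a member (18.6 to 54.9%) lay outside the exons of protein-coding transcripts. Most did not span an intron of a protein-coding transcript: 5750 held no such whole intron, 2389 held 1 and 1716 held 2 or more. The 5750 can hold part of an intron or a changed exon end. They include the 83 members in genes without a protein-coding transcript, for which no intron could be counted. Introns were counted by annotated start and end, so overlapping introns with different ends count as more than 1. In 2646 members under 20% of the sequence lay outside coding-transcript exons, and in 62 members no base did. For such members most fragments also fit the protein-coding transcript, and kallisto divides them by estimation.

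The retained introns were short, but their length was bounded by the way they were counted. An intron counted only when a member held it whole, so it could not be longer than that member (median member length 1016 bases). Other introns of the same genes had no such bound. The part of this bound in the comparison of lengths was not tested. Introns of at most 10 bases made up 1.88% of the retained introns and 0.131% of the others. The 6539 distinct introns held whole had a median length of 281 bases (128 to 639), against 1428 (457 to 3986) for the 76885 other introns of the same genes. Of the retained introns 17.7% were at most 100 bases long, against 5.47% of the others. Their GC content had a median of 56.8%, close to the 56.6% of the rest of the transcript, and was above it for 51.0% of them. Most lay between coding exons (5702), with 562 in untranslated regions and 275 placed differently by different transcripts. The ends were GT-AG in 95.3%, GC-AG in 93 introns and AT-AC in 13. The plot of cumulative intron length shows the retained introns to the left of the others over the whole range above 100 bases.

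**Figure D1:**
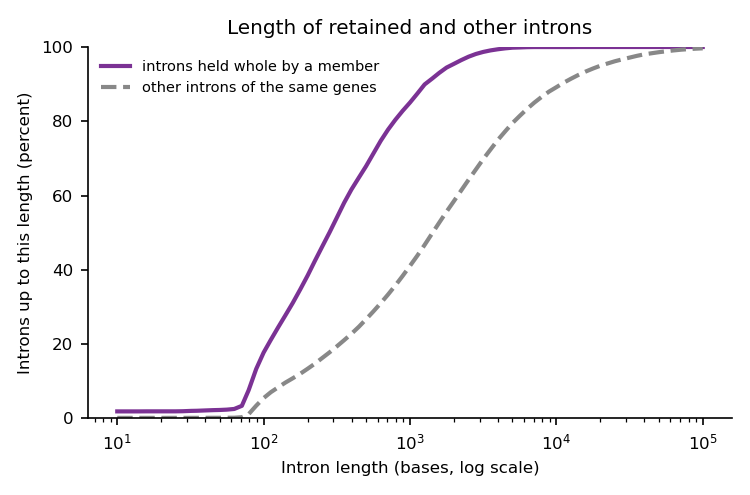
Cumulative percentage of introns (vertical axis) up to a given length in bases (horizontal axis, log scale) for the 6539 introns held whole by a member (solid line) and the 76885 other introns of the same genes (dashed line). The medians are 281 and 1428 bases. A retained intron cannot be longer than the member that holds it, while the other introns have no such bound.

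Within their genes members were a minority product. They held 7.22 to 7.72% of all TPM (a level per transcript length, scaled to the same total in each library), while the 26501 protein-coding transcripts of the same genes held 39.1 to 40.9%. The median member made up 5.13 to 5.75% of its gene's TPM depending on the library. Summed over the members of a gene, the median host gene gave 13.7 to 15.2% of its TPM to them and 65.1 to 68.1% to protein-coding transcripts. The spread between genes was wide: in 245 genes members held 50% or more in all 6 libraries, and in 668 genes under 5% in all 6. A total of 6046 members reached 1 TPM in every library, 639 were at 0 in at least 1 library, and 6175 had a mean below 50 estimated counts, so most single members were measured with few fragments.

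Median shares were higher in members with little unique sequence. Members with under 20% outside coding-transcript exons had a median share of 8.35%, those with 20 to 50% had 5.93%, and those with 50% or more had 3.998%. Members with a mean share of 50% or more were not ordered in this way. They numbered 63 of 2646, 58 of 4094 and 66 of 3032 in these 3 classes. Members that held no whole intron had a median share of 6.61%, those with 1 had 4.91% and those with 2 or more had 4.29%. Among the 100 members with the highest mean TPM the median share was 28.4%, and 60 had under 20% of their sequence outside coding-transcript exons. Whether the division of shared fragments raised these shares was not tested.

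Among members whose gene has a protein-coding transcript, the 10 with the highest mean TPM included 4 of ribosomal protein genes. EEF1A1-206 (translation elongation factor) stood at 1781, 1253 and 2067 TPM in number 1 and 2293, 2081 and 1978 TPM in number 2, which was 16.8 to 29.1% of its gene. RPL13-213 (a protein of the large ribosomal subunit) had 2081, 2071 and 2104 TPM against 1716, 1679 and 1681 TPM, a share of 58.0 to 61.1% in every library. The share of RPL13-213 was therefore nearly constant while the level in number 2 was lower in all 3 libraries. RPL14-208 made up 87.9 to 89.9% of its gene with only 1.64% of its length outside coding-transcript exons. OAZ1-208 and OAZ1-209 come from the antizyme gene, which limits polyamine synthesis and is read through a frameshift, and left 1.98 to 3.17% of the gene to protein-coding transcripts. The intron that both hold is a gap of 1 base in the annotated coding transcripts. The other members of this set, PTMA-211, TPM3-216, RPS23-203, RPL4-203 and NPM1-205, held 17.3 to 53.2% of their genes. NPM1-205, which keeps the intron printed above, ranged from 35.0% in A5-res 2 to 53.2% in shCtrl 2, so its spread within number 2 was as wide as between all libraries. EEF1A1, PTMA, NPM1 and the ribosomal protein genes have many near-identical processed copies, and their counts are uncertain for that reason.

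The first comparison asked whether the libraries labelled shA5 or A5-res differed in retained-intron transcripts. The members' part of all TPM was 7.48 ± 0.303% in shCtrl, 7.47 ± 0.348% in shA5 and 7.35 ± 0.133% in A5-res (mean ± SD, n = 2 each). The differences were -0.0144 percentage points for shA5 against shCtrl, -0.122 for A5-res against shA5 and -0.137 for A5-res against shCtrl. Exact two-sided permutation tests gave p = 1, 1 and 0.667, and 2 against 2 libraries cannot go below 0.33. The SD within a group is the gap between its numbers, which pair the libraries. Within numbers, A5-res was below shCtrl in both (7.44 against 7.70% in number 1 and 7.25 against 7.27% in number 2), while the other 2 comparisons differed in sign between numbers. The median member share was 5.41 ± 0.396%, 5.47 ± 0.397% and 5.38 ± 0.292% (SD, n = 2 each).

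Of the 9855 members, 9844 entered the edgeR test of levels with 58909 transcripts, and none was called at an adjusted p of 0.05 in any of the 3 comparisons (0% of all transcripts called). At an unadjusted p under 0.05 there were 84, 76 and 74 members for shA5 against shCtrl, A5-res against shA5 and A5-res against shCtrl. DESeq2 called 6, 3 and 4 members, with 0.175%, 0.165% and 0.163% of all transcripts called. Usage, the log2 ratio of a transcript's TPM to that of the rest of its gene, was tested by limma for 9729 members among 48923 transcripts, with 0 called (0% of all) and 164, 152 and 149 members at an unadjusted p under 0.05. The exon-usage test of edgeR, applied to transcripts, called 3, 5 and 5 members beside 0.0593%, 0.0899% and 0.0879% of all. The median usage difference of members was 0.02, -0.02 and 0.00 on the log2 scale. With the members of each gene summed, edgeR called 0 of 4631 genes in each comparison (0% of 28252 sums), with 50, 51 and 39 at an unadjusted p under 0.05. At the gene level edgeR called none of the 4635 host genes (0% of 14497), with 0, 1 and 1 at an unadjusted p under 0.05. With replicate number as a block it called 1, 0 and 1 genes of all, none of them a host.

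The members with the smallest p in the edgeR fit with replicate number as a block, among those whose groups did not overlap, were mostly low. All had an adjusted p of 1 in edgeR with and without the block. They were picked for their difference, so their values are a description. DDT-206 (D-dopachrome tautomerase, chr22:23973081-23974491, which keeps 2 overlapping introns) had 5.78 and 4.996 TPM in shCtrl 1 and shA5 1 and 6.78 and 5.96 TPM in shCtrl 2 and shA5 2. It was at 0.07 and 0.10 estimated counts in A5-res 1 and 2, while DDT as a whole held 84.0 to 113 TPM in all libraries. DDT has a near-identical neighbour, DDTL, so its counts are uncertain. MIB2-226 (a ubiquitin ligase) had a like pattern, with 58.2, 63.2, 140 and 107 estimated counts in the shCtrl and shA5 libraries of numbers 1 and 2 and 2.498 and 0.06 in A5-res. DESeq2 called both lower in A5-res, with an adjusted p of 0.00012 for DDT-206 and 0.000215 for MIB2-226 against shCtrl, and 0.000298 and 0.000826 against shA5.

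Members at 0 in the control libraries were few in counts. RNPS1-206, from a gene of the exon junction complex, had 0 estimated counts in both shCtrl libraries, 44.4 and 42.2 in shA5 1 and 2, and 101 and 15.5 in A5-res 1 and 2. Its share of RNPS1 was at most 0.839% in any library, and DESeq2 gave it an adjusted p of 0.0266 for shA5 and 0.0171 for A5-res against shCtrl. NUCB2-213 (nucleobindin) had 0 counts in both shCtrl libraries, 3.12 and 78.9 in shA5 and 7.16 and 164 in A5-res, so shA5 and A5-res each differed widely between their numbers. For A5-res against shCtrl DESeq2 gave it an adjusted p of 0.152 without and 0.0154 with the replicate block. MICAL2-217 had 148 and 22.2 counts in shA5 1 and 2 and rounded to 0 in the other 4 libraries. No fold is given for members at 0 in a whole group.

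The other members of this set had values above 0 in more libraries. HDAC2-208 (a histone deacetylase) had 61.7 and 48.0 TPM in shCtrl, 28.5 and 36.2 in shA5, and 59.9 and 72.7 in A5-res. SMTN-218 had 1.31 and 1.55 TPM, then 0.49 and 0.59, then 1.25 and 1.52. DXO-205 (a decapping exonuclease, holding 6 whole introns, some of them overlapping) had 2.02 and 3.38, then 0.84 and 0.70, then 2.41 and 3.04. In these 3 members both shA5 libraries lay below the other 4. TTC4-204, at 8.20 and 11.4 TPM in shCtrl, 0.00 and 0.44 in shA5 and 8.10 and 5.44 in A5-res, had the same order. DESeq2 gave TTC4-204 an adjusted p of 0.0361 for shA5 against shCtrl, and 0.158 with the replicate block. CARD9-207, from the gene of an adaptor of innate immune receptors, was ordered alike within each number, at 27.4, 19.0 and 14.5 TPM in number 1 and 33.7, 25.03 and 19.6 TPM in number 2. CTSZ-204 (cathepsin Z) had 54.1, 56.6 and 70.5 TPM in number 1 and 45.9, 53.6 and 75.1 in number 2. PTCD3-208 had 0.30 and 1.33 TPM in shCtrl, 5.43 and 8.69 in shA5, and 4.11 and 5.84 in A5-res. ATP8B4-204 had 13.0 and 20.2 TPM, then 6.53 and 10.1, then 8.35 and 12.3, and in both members shA5 and A5-res overlapped while shCtrl stood apart. The plot of these members by library shows which of them rest on values near 0.

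**Figure D2:**
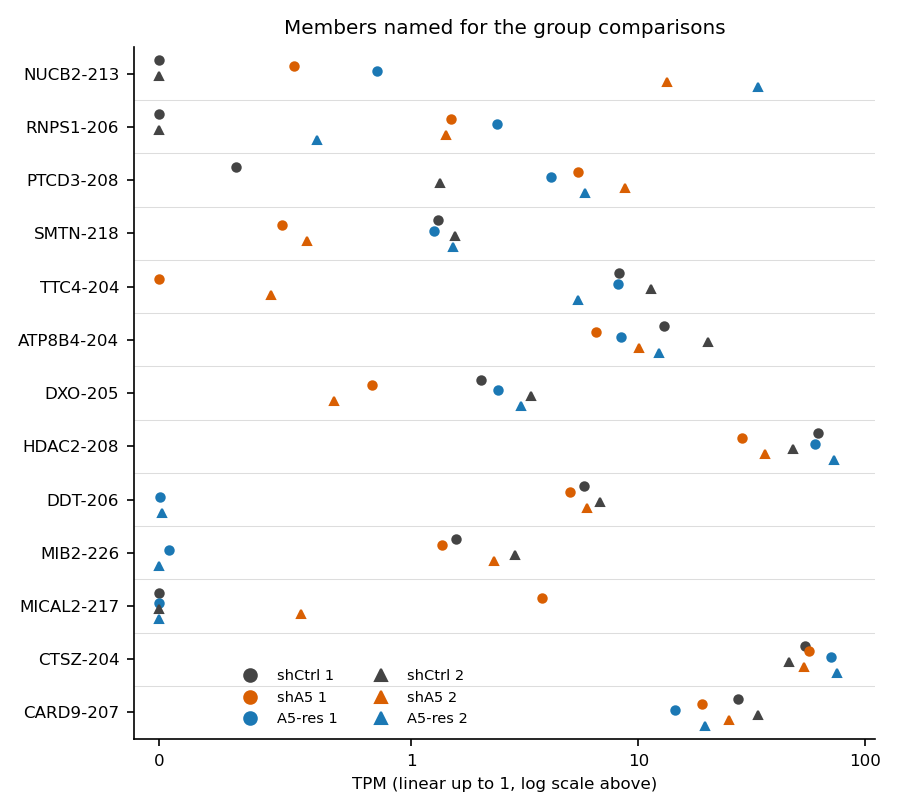
TPM (horizontal axis, linear up to 1 and log above) of the 13 members named for the group comparisons, 1 point per library, circles for number 1 and triangles for number 2. Both A5-res libraries are near 0 for DDT-206 and MIB2-226, and both shCtrl libraries are at 0 for NUCB2-213 and RNPS1-206.

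The libraries differed far more by their number. Members held 7.70, 7.72 and 7.44% of all TPM in number 1 and 7.27, 7.22 and 7.25% in number 2, and the numbers did not overlap. The means were 7.62 ± 0.153% and 7.25 ± 0.0234% (SD, n = 3), a difference of -0.369 percentage points, with an exact two-sided permutation p of 0.1, the smallest that 3 against 3 libraries allow. As for the groups above, the test shuffled single libraries and did not keep the pairing of group and number. The median member share was 5.69, 5.75 and 5.59% against 5.13, 5.18 and 5.18%. In the median host gene the members' share was 15.2, 15.0 and 15.1% against 14.1, 13.7 and 13.7%, and the protein-coding share 65.4, 65.1 and 65.2% against 67.4, 67.7 and 68.1%. Both shares in the median host gene separated the numbers in every group, in opposite directions. As a part of all TPM, however, the protein-coding transcripts of the same genes were also lower in number 2. They held 40.74, 39.98 and 40.88% in number 1 and 39.29, 39.13 and 39.59% in number 2, without overlap.

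**Figure D3:**
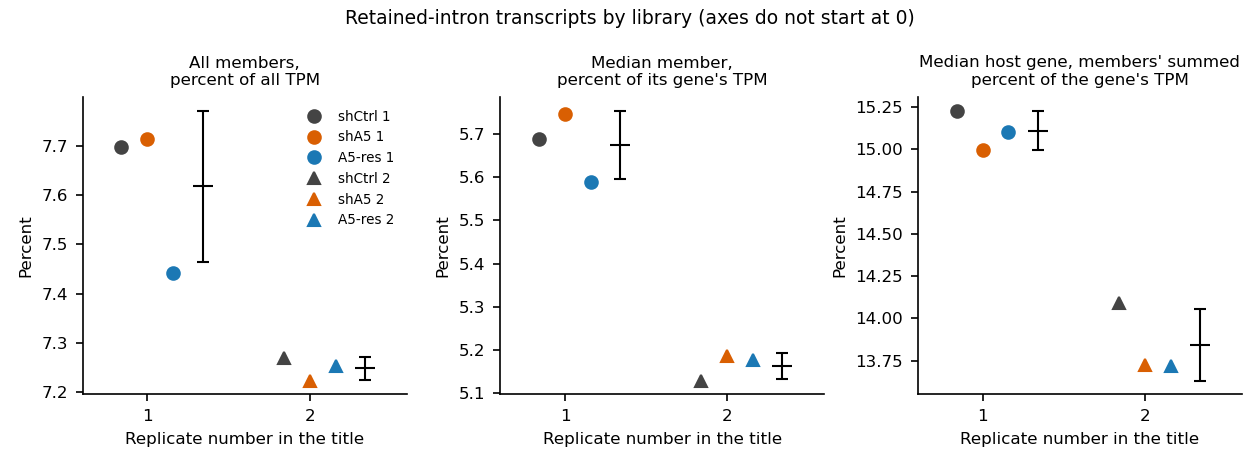
Percent (vertical axes, which do not start at 0) for each of the 6 libraries by replicate number: members' part of all TPM, median member share of gene TPM, and members' summed share in the median host gene. Bars give mean ± SD of 3 libraries, and all 3 number 2 libraries lie below all 3 number 1 libraries in each panel.

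Fits across all transcripts gave few calls for single members when group and number were both in the model. At the level of transcripts edgeR called 1 of 58909 (0.0017%) and no member, with 1797 members at an unadjusted p under 0.05. With number alone in the model, 765 members were called (234 higher and 531 lower in number 2), when 9.43% of all transcripts were called, 4.41% higher and 5.02% lower. DESeq2, with both terms, called 474 members (137 higher, 337 lower) beside 8.38% of all, 4.19% in each direction. The called share of members, 7.77% with number alone and 4.82% with DESeq2, was thus below that of all transcripts. Members were called higher less often than all transcripts, in 2.38% with number alone and 1.39% with DESeq2. Called lower were 5.39% with number alone, near the share of all, and 3.42% with DESeq2, below it. For usage limma called 0 members (0% of all) with both terms, with 1406 at an unadjusted p under 0.05. With number alone it called 55 (6 higher, 49 lower), against 0.595% of all transcripts, 0.221% higher and 0.374% lower. The edgeR exon-usage test called 68 members (13 higher, 55 lower) beside 1.14% of all, 0.489% higher and 0.65% lower.

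Shares were lower in number 2 more often than higher. The share of gene TPM did not overlap between numbers in 942 members higher in number 2 and 1736 lower (9.68% and 17.8% of 9729), against 11.5% and 12.8% of all transcripts. The median usage difference was -0.11 on the log2 scale for members, with 59.0% of them lower, against -0.04 for all transcripts and 0.00 for protein-coding ones. Nonsense-mediated decay transcripts, which are also non-productive, had a median of -0.10. Short protein-coding transcripts (up to 700 bases) had -0.08 and long ones (over 2000) 0.03, so the difference was ordered by transcript length in that type. Members had -0.12 up to 700 bases and -0.09 over 2000 bases. Members that held no whole intron had -0.08, those with 1 had -0.14 and those with 2 or more had -0.17. Overlapping introns with different ends count separately in these classes, which are therefore not numbers of separate introns.

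**Figure D4:**
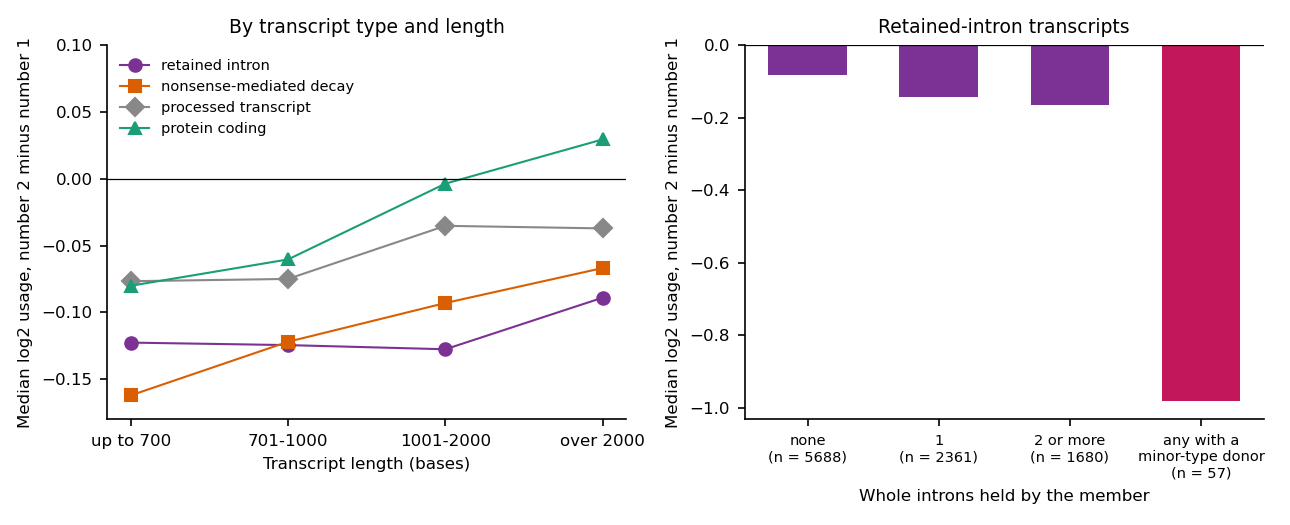
Median log2 usage in number 2 minus number 1 (vertical axes, different scales) by transcript type and length (left) and by the whole introns a member holds (right, with the number of members). Retained-intron transcripts lie below 0 in all length classes, and the 57 members with a minor-type donor intron have a median of -0.98.

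Members that keep an intron of the minor type differed most. This class was drawn after the introns of the members called by number had been read, so it is a description with no test. Of 6539 retained introns, 47 start with GTATCC and 13 with ATATCC on the strand of the gene (0.918%), and 27 of these 60 (45.0%) also hold a branch motif in their last 40 bases, against 76 of the 6479 other introns (1.17%). A match is a description of these letters and was not tested as a splice site. The 60 introns, some of them overlapping, lie in 58 members of 52 genes, with a median intron length of 304 bases. Their median share was 8.69, 8.95 and 9.68% in number 1 and 3.32, 4.10 and 3.54% in number 2. For the 4047 members with other whole introns the medians were 4.72, 4.84 and 4.68% and 4.17, 4.17 and 4.29%.

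The median usage difference of the minor-type members was -0.98 on the log2 scale (48 of 57 tested were lower), against -0.15 for members with other whole introns (62.3% lower). Within the labelled groups it was -0.997 in shCtrl, -0.93 in shA5 and -0.89 in A5-res. With a branch motif as well the median was -1.41, and 26 of 29 were lower. Number alone called 11 of the 57 in limma's usage fit, all lower, and 12 of the 3984 members with other whole introns, 11 of them lower, where 0.595% of all transcripts were called. The class was drawn after members called in this fit had been read, so its calls and overlaps are a description only. In 40 of the 58 the share in number 2 lay below that in number 1 without overlap, and in 3 above it, against 12.8% and 11.5% of all transcripts. Between groups the same members had medians of -0.02, -0.05 and 0.04 for shA5 against shCtrl, A5-res against shA5 and A5-res against shCtrl, with 0 at an unadjusted p under 0.05 in limma's fit.

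Single minor-type members had shares several times higher in number 1. ZDHHC5-207, from a palmitoyltransferase gene, made up 23.0, 23.4 and 19.6% of its gene in number 1 and 2.24, 1.64 and 2.96% in number 2. Its log2 usage difference was -3.24 ± 0.251 (SE), with an adjusted p of 0.0163 in limma with number alone and 0.196 with the group term. ZDHHC5 itself had 57.3 to 59.8 TPM in number 1 and 62.5 to 66.4 TPM in number 2, so the level of the gene differed little beside that of the member. DRAP1-207, from the gene of a transcriptional corepressor subunit, had 15.3, 18.04 and 16.3% against 3.34, 2.498 and 2.20% (log2 difference -2.67 ± 0.234). ALG3-213, from a mannosyltransferase gene of N-glycan assembly, had 16.5, 16.4 and 18.4% against 3.87, 3.66 and 3.70% (-2.23 ± 0.195). For both the adjusted p was 0.0203 with number alone.

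UBL5 encodes a small ubiquitin-like protein that takes part in splicing itself. UBL5-203 had 7.83, 6.72 and 5.48% in number 1 and 0.946, 0.808 and 0.922% in number 2, and UBL5-205, with the same donor motif, had 3.78, 4.36 and 3.89% against 0.61, 0.73 and 0.34%. UBL5 as a whole was higher in number 2, with 474.5 to 510 TPM against 264 to 305 TPM. The members and their gene thus differed in opposite directions. Past the adjusted threshold with number alone were also MAEA-220, from a ubiquitin ligase subunit (17.5, 19.6 and 17.96% against 6.29, 6.25 and 6.70%), GPAA1-212, from a subunit of the GPI transamidase (8.53, 10.9 and 10.3% against 3.08, 3.502 and 2.28%), and NOL11-209, from a nucleolar gene (8.42, 9.56 and 9.34% against 1.95, 2.18 and 2.18%). No branch motif was found in the GTATCC intron of NOL11-209, nor in that of RPL4-214. RPL4-214, which also holds a second intron, had 3.19, 3.29 and 3.11% against 0.217, 0.234 and 0.331%.

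Others with both motifs missed the threshold while their shares did not overlap. USP21-206 (a deubiquitinase) had 32.1, 28.7 and 35.1% against 12.3, 13.4 and 16.4%. TRAIP-211 (a ubiquitin ligase of replication) had 24.9, 19.1 and 22.4% against 7.48, 8.96 and 5.37%. E2F4-203, from the gene of a cell cycle repressor, had 14.0, 12.6 and 12.05% against 3.27, 5.77 and 3.38%. Other minor-type members had overlapping shares: SLC25A30-206 (a mitochondrial carrier) had 5.38, 4.92 and 5.98% against 5.42, 4.11 and 4.93%, and LMBR1L-216 had 10.8, 9.70 and 10.5% against 9.69, 7.26 and 12.6%. Of the 39 such members with a mean of at least 50 estimated counts, 35 had a lower mean share in number 2. Of 8 genes of the minor spliceosome's own proteins tested at the gene level, SNRNP48 was lower in number 2 (log2 difference -0.49) and none was higher, where 22.6% of all genes were lower and 22.8% higher.

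**Figure D5:**
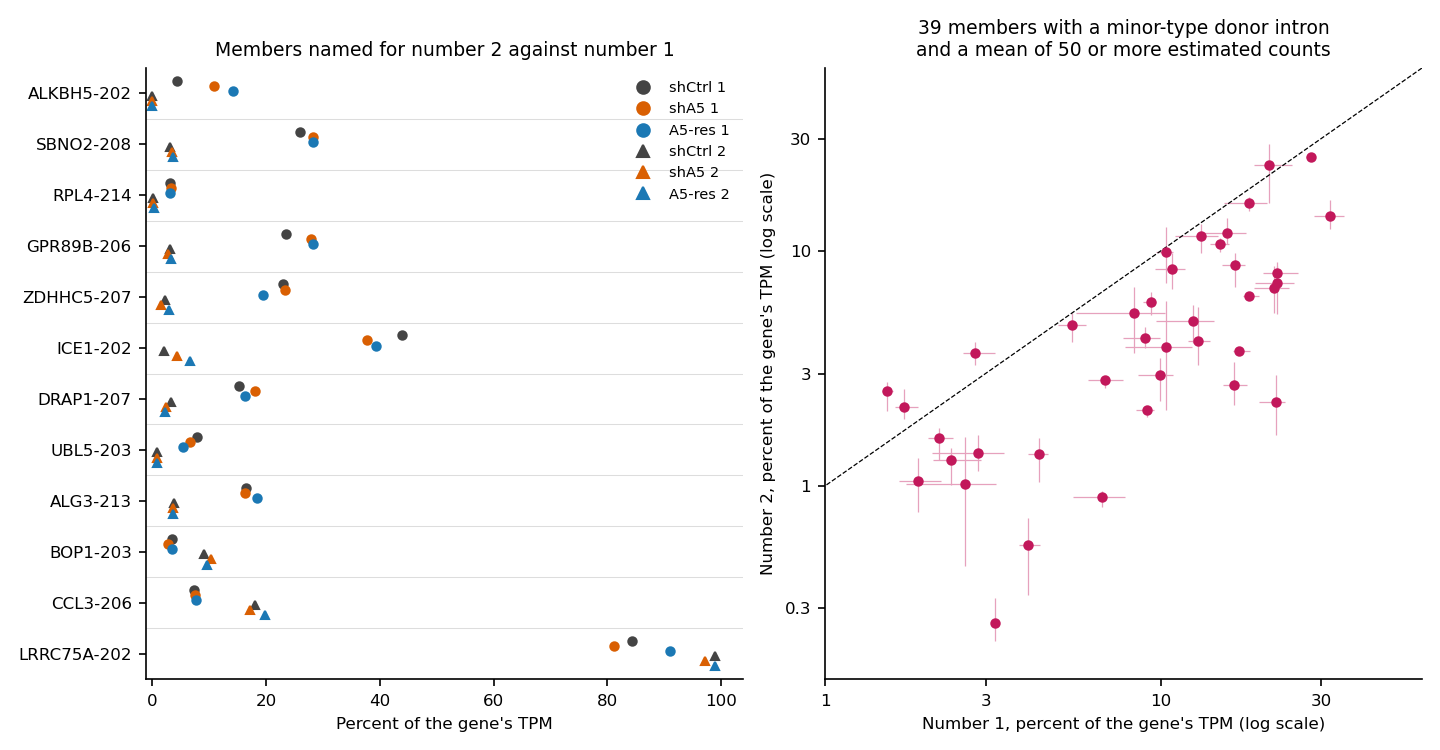
Left, share of gene TPM in percent for ALKBH5-202 and the members named for number 2 against number 1, 1 point per library. Right, mean share in number 2 (vertical) against number 1 (horizontal, both log scales) for 39 members with a minor-type donor intron, with lines over the range of 3 libraries and a dashed line of equality, below which 35 points lie.

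The remaining members named by the usage rule held no minor-type intron. SBNO2-208, from a gene of a transcriptional regulator, had 26.1, 28.3 and 28.3% of its gene in number 1 and 3.19, 3.58 and 3.62% in number 2 (log2 difference -3.17 ± 0.191, adjusted p = 0.0109 in limma with number alone). ICE1-202, from a subunit gene of the little elongation complex, had 43.9, 37.7 and 39.3% against 2.14, 4.42 and 6.59%. GPR89B-206 had 23.5, 27.9 and 28.2% against 3.102, 2.73 and 3.25%, and is uncertain because GPR89A is near-identical. These 3 hold no whole intron and are told from the coding transcripts by partial intron or end sequence. Higher in number 2 were 3 members. CCL3-206, from a monocyte chemokine gene, had 7.41, 7.53 and 7.66% against 18.1, 17.3 and 19.8%, and it keeps an intron of 688 bases of the major type. BOP1-203 (ribosome biogenesis) had 3.47, 2.71 and 3.43% against 9.11, 10.3 and 9.58%. LRRC75A-202 had 84.3, 81.2 and 90.9% against 98.9, 97.2 and 98.8%. All 11 had an adjusted p of 0.196 to 0.205 in limma with the group term. The edgeR exon-usage test called none of the 3 higher ones: its log2 difference was 1.23 for BOP1-203 (adjusted p = 0.214), 0.76 for CCL3-206 (0.332) and 0.06 for LRRC75A-202 (1). Nor did it call GPR89B-206 (-2.03, adjusted p = 0.475) or UBL5-203 (-1.79, adjusted p = 0.0741), while it called the other 6 lower.

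ALKBH5 had 1 member, ALKBH5-202 (ENST00000490106.1, chr17:18206561-18209954, +, 2146 bases), with 254 bases outside coding-transcript exons and no whole intron. It stood at 0.304, 0.649 and 0.857 TPM in number 1, where it was 4.36, 11.0 and 14.2% of the gene. In number 2 it had 0.0916, 0.048 and 0.0597 TPM, or 0.0177, 0.00945 and 0.0119%. These rest on 6.91, 18.5 and 34.8 estimated counts in number 1 and 2.77, 1.37 and 1.42 in number 2. The numbers did not overlap in level or share, and the member was lower in number 2 while the gene was higher. Its log2 level difference was -3.29 ± 0.947 with an adjusted p of 0.175 in edgeR, and its usage difference of -7.30 had an adjusted p of 0.00363 in limma with number alone and 0.173 with the group term. Within number 1 the library labelled shCtrl had the lowest value and A5-res the highest, with 1 library each.

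Summing the members of a gene gave more counts per feature. This was added after the single-member results were seen. With group and number in the model, edgeR called 768 of 4631 member sums (16.6%), 262 higher and 506 lower in number 2, against 19.4% of all sums of a gene and type, 9.75% higher and 9.64% lower. The host genes themselves were called in 2409 of 4635 cases, 1171 higher and 1238 lower, against 45.4% of all genes, 22.8% higher and 22.6% lower. Of 755 called member sums with a tested protein-coding sum, the latter was called in the same direction in 345, in the opposite direction in 54 and not at all in 356. The 54 opposite genes comprised 45 with lower and 9 with higher members, and the 356 comprised 252 and 104. These splits stand beside 506 lower and 262 higher among all called member sums. The same counts were not made for other transcript types. In the usage of sums with number alone 59 were called, 4 higher and 55 lower, against 1.09% of all, 0.516% higher and 0.576% lower. MAEA had the smallest adjusted p with a member sum of 19.0, 21.1 and 19.2% of the gene against 8.23, 8.45 and 8.397% (log2 level difference -1.82 ± 0.0956, adjusted p = 0.00331 in edgeR), and was picked here for that value.

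Members of splicing and decay genes were read by list, against 5.66% of all member sums called higher and 10.9% lower, and 22.8% of all genes called higher and 22.6% lower. The counts per list are small, and shares near these are no result about a list. The 14 SR protein genes, which promote splicing and regulate their own RNAs by non-productive forms, have 23 members in 10 genes, and the median usage difference was 0.45 with 4 of 23 lower. No SR protein member was called for usage with either model, and the member sum was called higher for TRA2A (4.46, 5.45 and 7.02% against 7.66, 14.4 and 15.998%) and lower for SRSF10 (15.3, 14.6 and 15.0% against 7.12, 9.01 and 9.68%). At the gene level 0 of 14 were higher and 4 lower. The 48 members of 11 HNRNP genes, which code for nuclear RNA-binding proteins, had a median usage difference of 0.27 with 19 lower, while the median level difference of the 11 sums was -0.23. The sums were called higher for HNRNPA2B1, HNRNPD and HNRNPH1, and of 20 genes 4 were higher and 6 lower. For HNRNPH1 the share was 47.2, 44.6 and 41.4% against 53.6, 58.8 and 61.6%. Single members of these families scattered between libraries of one number: SRSF1-202 had 13.9, 20.9 and 18.5% against 15.6, 6.07 and 2.53%.

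Of 41 genes of the major spliceosome, 22 were lower and 3 higher at the gene level in number 2, against 22.6% and 22.8% of all genes, while their 63 members had a median usage difference of -0.03 with 34 lower, and 2 sums were lower (SF3A2 and SF3B3). SF3B3 members held 72.4, 75.2 and 78.8% of the gene against 77.0, 76.1 and 74.6%, with overlap. The minor spliceosome genes had 6 members in 5 genes with a median of -0.13 and 0 sums called. Of the kinases of SR proteins, SRPK1 had a lower member sum (48.2, 44.4 and 51.1% against 39.9, 35.7 and 35.6%), among 14 members with a median of 0.14 and 1 called with number alone.

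For genes that act on RNA after splicing, the counts of lower sums stand beside 10.9% of all member sums. The exon junction and export list (36 members in 12 genes, median 0.12) had 2 lower sums, RBM8A and RNPS1. The nonsense-mediated decay factors (14 members in 5 genes, median -0.06) had 1, UPF1, at 17.0, 17.4 and 18.3% against 9.42, 13.8 and 11.99%. The nuclear exosome and its adaptors (14 members in 8 genes, median -0.45, 10 of 14 lower) had 2, EXOSC5 and EXOSC10. At the gene level RBM8A, RNPS1, UPF1 and EXOSC10 were themselves called lower in number 2 (log2 difference -0.42, -0.54, -0.47 and -0.27). EXOSC5, a core exosome subunit, had 22.2, 19.1 and 17.0% against 6.12, 2.73 and 5.34%, with an adjusted p of 0.0284 for the level of the sum in edgeR, while EXOSC5 itself was not called (0.281). The m6A enzymes and readers (15 members in 8 genes, median 0.08) had HNRNPA2B1 higher and ALKBH5 lower. Among all members tested the median was -0.11. No list had a member called in the 3 group comparisons by edgeR for levels or by limma for usage. DESeq2 called the RNPS1 member described above for shA5 and for A5-res, each against shCtrl.

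Genes with known regulated retention had 15 members in 5 genes, with a median of -0.02 and 8 of 15 lower. DDX5 and OGT had higher member sums in number 2, and both genes were themselves called higher (log2 difference 0.29 and 0.34 at the gene level). DDX5-215, from an RNA helicase gene, had 95.4, 89.2 and 88.0 TPM in number 1 and 121, 147 and 164 TPM in number 2, or 11.97, 11.6 and 12.2% and 14.4, 17.8 and 20.7% of its gene. MAT2A-205 keeps the intron printed above, in the gene of the enzyme that makes the methyl donor of m6A. It had 24.7, 20.1 and 20.2 TPM against 26.4, 30.3 and 34.3 TPM, and 10.2, 8.67 and 9.65% against 12.3, 13.0 and 13.2% of its gene. The numbers did not overlap, but the member sum of MAT2A was not called (log2 difference 0.17, adjusted p = 0.363 in edgeR). Its direction was thus opposite to that of most minor-type members.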

How the data were processed

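RNA-seq of 6 THP1 libraries gave 1 transcript table each. Per the submitters' processing notes the tools were CASAVA and kallisto 0.43.1 with build hg38; options, strand use and the transcript release are not stated there. The authors deposited an estimated count and a TPM value per transcript, from pseudoalignment that divides shared fragments between transcripts. Transcript types, exons and sequences came from GENCODE release 29 (GRCh38), which held 163714 of the 179973 transcripts (91.0%). The members and gene lists were chosen with earlier results of these data known.

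Estimated counts were rounded and tested with edgeR 4.0.16 (quasi-likelihood, TMM, filterByExpr) on all transcripts, on sums per gene and type (added after seeing the data) and per gene. Usage, log2 of a transcript's TPM over that of the gene's other transcripts with a pseudocount of 0.5 on both, was tested with limma 3.58.1. Each used all 6 libraries and Benjamini-Hochberg adjustment at 0.05. DESeq2 1.42.0, the edgeR exon-usage test, other pseudocounts, filters and minimums, a replicate block, and leaving out each library were alternatives. Members named were the ALKBH5 member, the 10 with the highest mean TPM, 3 per direction and group comparison by p with the block and no overlap (mean count of 20 or more), up to 8 per direction by adjusted p for number (50 or more), and up to 4 per gene list. The 10 with the highest mean TPM and the members for number were taken only from genes with a protein-coding transcript. The rule for number was applied to the usage fit with number alone, since the fit with the group term called no member.

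The replicate numbers paired the libraries: deviations of same-numbered libraries from their group means correlated at 0.44, 0.38 and 0.56 over members. No 2 libraries were identical. In simulated data for number 2 against number 1 with group and number in the model, the level fit recovered 56% of 4-fold and 90% of 8-fold changes with the trended dispersion (54977 transcripts), and 18% and 64% with each transcript's own (54774). The usage fit (48923 transcripts) recovered 0% of 8-fold changes under both, and with number alone 22% and 48%. Reads carried no molecular identifiers, so count precision covers counting error only. R 4.3.3 and Python 3.11.15 were used.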

Additional observations from a re-analysis of the deposited data

Results flagged for a closer look

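Within numbers, 3 small group differences had opposite signs, with 1 library per group and number, so the difference between numbers was not tested. The members' part of all TPM in shA5 against shCtrl differed by 0.0175 percentage points in number 1 and by -0.0462 in number 2. In A5-res against shA5 it differed by -0.274 percentage points in number 1 and by 0.0292 in number 2. The median member share in A5-res against shCtrl differed by -0.0999 percentage points in number 1 and by 0.0475 in number 2.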

How the results depend on the processing

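Estimates for single members were limited by counts, since most had a mean under 50, and by 2 libraries per group. Of 575 settings other than the reported ones, 23 raised a count of calls above the reported 0, 35 called a named member that was not called, 10 moved a median, and no called value changed sign. Group differences that were not called did change sign, as given at the end. For the group comparisons in the order shA5 against shCtrl, A5-res against shA5 and A5-res against shCtrl, DESeq2 called 6, 3 and 4 members by level and the edgeR exon-usage test 3, 5 and 5 by usage. With the replicate block, edgeR and limma called 0 members in all 3, DESeq2 called 1, 2 and 4, the exon-usage test called 6, 8 and 8, and the gene-level fit called 1, 0 and 1 genes. By level, number 2 against number 1 gave 474 members in DESeq2, 33 without the filter on low counts, 765 with number alone, and 768 sums of a gene's members, or 1111 with number alone. By usage it gave 68 members in the exon-usage test, 55 with number alone, 1 with a pseudocount of 2, and 59 sums with number alone.

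The median member share differed between numbers by -0.434 percentage points at a minimum of 30 summed counts, -0.672 at a minimum of 200 and -0.381 in estimated counts. For members with a minor-type donor intron the median usage difference was -0.811 in the exon-usage test, -1.32 in estimated counts, -1.12 at a minimum of 200, -1.13 with a pseudocount of 0.1 and -0.593 with a pseudocount of 2. Leaving out each library in turn gave -1.13 to -0.948. The members' part of all TPM then differed between numbers by -0.458 to -0.321 percentage points, while its group differences took both signs. The cause of these shifts was not tested.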
